A study of Rattus norvegicus with 25 samples.

Results

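Genes that encode the subunits of the oxidative phosphorylation machinery were examined in the striatum of adolescent rats. The members were the genes whose probe sets carry a single annotated symbol that begins with Nduf followed by a, b, c, s or v (complex I), is Sdha, Sdhb, Sdhc or Sdhd (complex II), begins with Uqcr (complex III), begins with Cox, a digit from 4 to 8 and a, b or c (complex IV), or begins with Atp5 (complex V). Assembly factors named Ndufaf were left out. These symbols matched 87 probe sets of 75 genes, out of 14506 genes with a single symbol and 29214 probe sets on the array, and each gene was represented by the probe set with the highest mean over the 25 arrays. Complex I had 34 genes, complex II 4, complex III 7, complex IV 14 and complex V 16.

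The animals were male Lister hooded rats killed between postnatal days 35 and 42, each measured on 1 Affymetrix rat Gene 1.0 ST array. In the Nic group (n = 7) the dams drank nicotine bitartrate in their water before mating and through gestation, in the Con group (n = 8) they drank tap water and ate freely, and in the Con-Pf group (n = 10) they drank tap water and received each day the amount of food that matched Nic dams had eaten. All 3 groups share the strain, the sex and the age range, and no genotype was altered. Pups within a group can share a dam and the labels do not say which do, so p-values measure the spread between these animals. Con-Pf 9 and Con-Pf 10 carry the title of the pair-fed group and a description that names a control, and were kept as Con-Pf. For the arrays analysed, the study's text counts 7 Nic, 10 Con and 8 Con-Pf, which is the split by the descriptions. Elsewhere it counts 10 Con and 10 Con-Pf animals before Con arrays were removed for quality, which goes with the titles. The labels do not settle which placing is right. The study's design asks whether gestational nicotine, or the reduced food intake that goes with it, leaves a trace in gene expression at adolescence.

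Oxidative phosphorylation is carried out in the inner mitochondrial membrane. Complexes I and II pass electrons from NADH and succinate to ubiquinone, complex III passes them on to cytochrome c, and complex IV hands them to oxygen. The proton gradient built by complexes I, III and IV drives complex V, the ATP synthase. A few core subunits of each complex carry the redox centres or the catalytic sites, and most of the others are small accessory subunits needed for assembly and stability. All complex II subunits are encoded in the nucleus, whereas the other complexes combine nuclear subunits with some encoded by mitochondrial DNA, which the symbols used here do not cover. Neurons depend on this pathway for most of their ATP. Its nuclear genes are scattered through the genome (the 75 members lie on 19 chromosomes) and are known targets of the transcription factors NRF1, GABP and YY1.

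The promoters of the members were searched for the short core sequences of these 3 factors, since shared letters are a feature that the choice by symbol did not use. The reference promoters, from RefSeq on the GRCr8 build, run from 250 bases before to 50 bases after the start of the gene and were given for 66 of the 75 members. The NRF1 core TGCGCA stood on either strand in 21 of them (31.8%), against 7.68% of all 27457 genes with a promoter in the table and 9.18% of the 19005 protein-coding ones. The GABP core CCGGAAG stood in 19 (28.8%), against 9.22% and 11.2%. The YY1 core AAGATGG stood in 15 (22.7%), against 7.3% and 7.58%. At least 1 of the 3 was found in 42 members (63.6%), against 21.5% of all genes and 24.6% of the protein-coding ones. By complex, 19 of 31 promoters of complex I, 4 of 4 of complex II, 4 of 5 of complex III, 6 of 11 of complex IV and 9 of 15 of complex V held a core. The median GC content was 56.2% for the members and 55.3% for protein-coding genes.

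Stretches from this search are shown for 4 genes because these recur in the results: Uqcrq, Cox5b and Ndufb6 each had the smallest p-value of their complex in a comparison with Con, and Uqcrc2 was among the 4 members that were not lower on Con 5, 1 of the 2 arrays that stood apart. Each runs over the 150 bases before the start of the gene, 5′ to 3′ on the gene's strand, and capitals mark a core or its reverse complement (CTTCCGG for GABP, CCATCTT for YY1).
Uqcrq (chr10:38089979-38090128, minus strand, GRCr8): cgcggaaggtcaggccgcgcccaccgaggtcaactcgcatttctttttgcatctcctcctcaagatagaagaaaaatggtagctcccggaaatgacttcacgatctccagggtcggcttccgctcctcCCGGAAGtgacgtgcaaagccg
Cox5b (chr9:46417687-46417836, plus strand, GRCr8): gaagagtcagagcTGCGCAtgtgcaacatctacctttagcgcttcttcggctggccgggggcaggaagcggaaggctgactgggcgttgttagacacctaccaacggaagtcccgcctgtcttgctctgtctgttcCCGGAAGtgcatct
Ndufb6 (chr5:60206153-60206302, minus strand, GRCr8): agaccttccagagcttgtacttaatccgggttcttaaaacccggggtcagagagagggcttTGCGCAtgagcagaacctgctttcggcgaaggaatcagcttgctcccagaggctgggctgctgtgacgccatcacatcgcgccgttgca
Uqcrc2 (chr1:184599090-184599239, plus strand, GRCr8): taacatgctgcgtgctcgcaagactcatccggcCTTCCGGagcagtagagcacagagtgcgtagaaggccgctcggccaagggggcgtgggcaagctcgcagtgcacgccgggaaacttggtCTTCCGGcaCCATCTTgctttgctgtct
The GABP core began 22 bases before the start in Uqcrq and 14 before it in Cox5b, the NRF1 core 137 bases before it in Cox5b and 89 before it in Ndufb6. Uqcrc2 had the GABP core at 117 and 28 bases and the YY1 core at 19 bases before the start. These are matches of letters, and binding was not measured.

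Most members passed the filter on low values. Probe sets whose mean over the arrays reached the median of the probe-set means were kept for testing (14607), and 70 of the 75 members passed. The 5 that did not were all of complex IV. Cox6a2 and Cox8b, the isoforms of heart and skeletal muscle, had log2 values of 6.47 to 7.01 and 5.75 to 6.82 over the 25 arrays. Cox6b2 and Cox8c, known from testis, had values of 6.08 to 6.82 and 5.00 to 5.53, and Cox6c-ps1 is annotated as a pseudogene. Levels of different probe sets were not compared beyond this filter. Ndufs6-ps1, which passed, also carries a pseudogene name, and probes may not separate the RNA of such copies from that of their parent genes. Atp5if1, the inhibitor protein of the ATP synthase, was taken in by its symbol.

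Before the comparisons, the arrays themselves were examined, because 2 of the Con arrays stood apart. On the first principal component of the kept probe sets, which held 30.4% of the variance, Con 3 and Con 5 had scores of -25.2 and -33.9. No pair of arrays was identical, and correlations between arrays ran from 0.967 to 0.997. Most oxidative phosphorylation genes were below the mean of the other 23 arrays on Con 3 and on Con 5 (66 of 70 on each). For each array, the mean over the 70 members of the log2 value minus the gene's mean over the 25 arrays was taken as its mean deviation. This was -0.42 for Con 5 and -0.31 for Con 3, while the other Con arrays ran from -0.13 (Con 1) to 0.10 (Con 7). Nic arrays ran from -0.03 to 0.12 with a median of 0.06, and Con-Pf arrays from -0.07 to 0.15 with a median of 0.05. All Nic and Con-Pf arrays thus lay above Con 3 and Con 5 and within the range of the 6 other Con arrays or slightly over its upper end. The group means were -0.09 ± 0.19 (SD, n = 8) for Con, 0.05 ± 0.06 (SD, n = 7) for Nic and 0.04 ± 0.07 (SD, n = 10) for Con-Pf. Without Con 3 and Con 5 the Con mean was 0.00 ± 0.08 (SD, n = 6). The score gives 1 value per array and is a description. No test was made of it, and its genes were not counted as replicates.

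**Figure D1:**
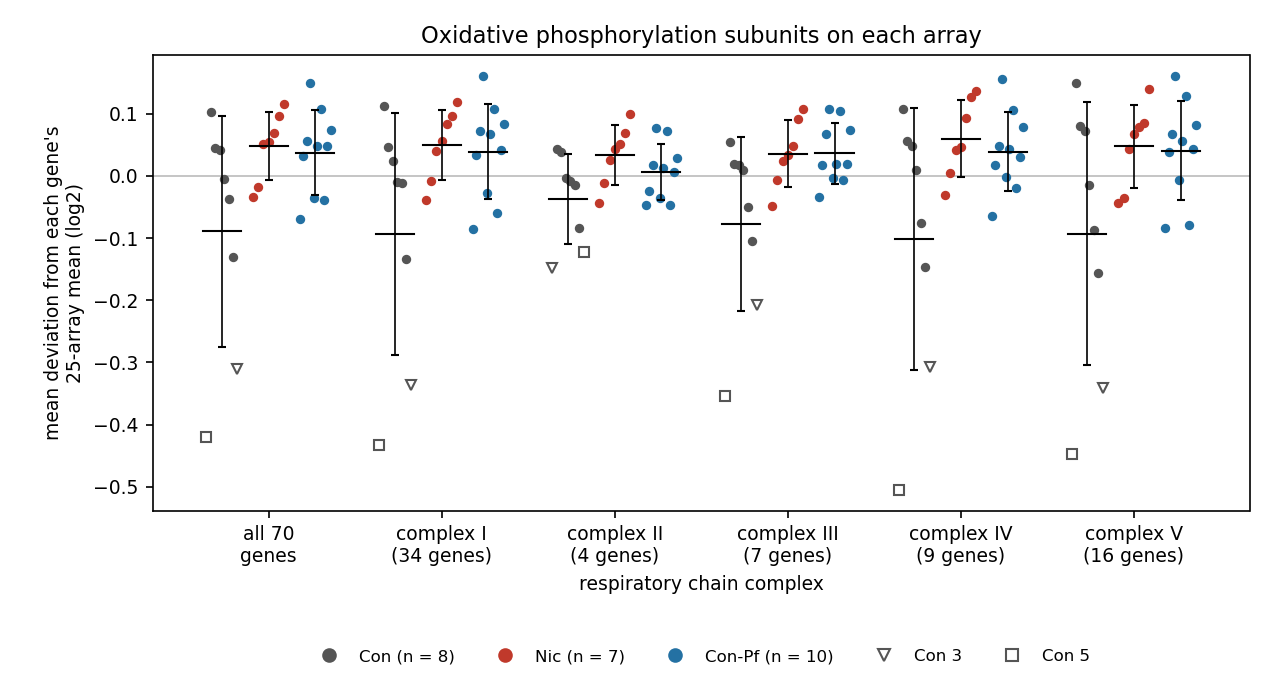
Mean deviation of the oxidative phosphorylation genes on each array (y axis, log2 units, 0 is the gene's mean over the 25 arrays), over all 70 genes and for each complex (x axis). Each point is 1 array, horizontal bars are group means and vertical bars SD, and the open triangle and square are Con 3 and Con 5, which lie at -0.31 and -0.42 over all genes while the other 23 arrays lie between -0.13 and 0.15.

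The departure of Con 3 and Con 5 was present in each complex and smallest in complex II. For Con 5 the mean deviation was -0.43 in complex I, -0.12 in complex II, -0.35 in complex III, -0.51 in complex IV and -0.45 in complex V. For Con 3 it was -0.34, -0.15, -0.21, -0.31 and -0.34 in the same order. Con 5 was the lowest of the 25 arrays for 53 of the 70 members (75.7%), against 22.7% of all kept probe sets. Both arrays were the lowest pair for 54 members (77.1%), against 18.4% of all kept probe sets. The median member was 0.53 lower on Con 5 than the mean of the other 23 arrays (30.8% lower on the linear scale) and 0.37 lower on Con 3 (22.7%), whereas the medians over all kept probe sets were -0.03 on both. The 12 further probe sets of the 11 members that have more than 1 were also lower on both arrays.

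Within a complex the members differed widely in this respect. On Con 5, 37 members lay more than 0.5 below the mean of the other 23 arrays, 21 lay 0.2 to 0.5 below it, 8 lay less than 0.2 below it and 4 lay above it. The largest departures on Con 5 were -0.86 for Ndufv3 and Ndufa1, accessory subunits of complex I, -0.85 for Uqcrq, a small subunit of complex III, -0.82 for Cox6a1 and -0.81 for Cox5b, nuclear subunits of cytochrome c oxidase, and -0.75 for Atp5mc2, which encodes the c subunit of the ATP synthase ring. The 4 genes above the mean were Uqcrc2, named core protein 2 of complex III although it holds no redox centre (0.06), Sdha, the flavoprotein that oxidises succinate (0.06), Ndufs1, the largest iron-sulfur subunit of complex I (0.05), and Atp5f1b, the catalytic beta subunit of the ATP synthase (0.03). The next members were Sdhc, a membrane anchor of complex II (-0.06), Uqcrb, a small subunit of complex III (-0.10), Ndufs4, an accessory subunit of complex I (-0.10), and Ndufv1, which binds NADH (-0.12).

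**Figure D2:**
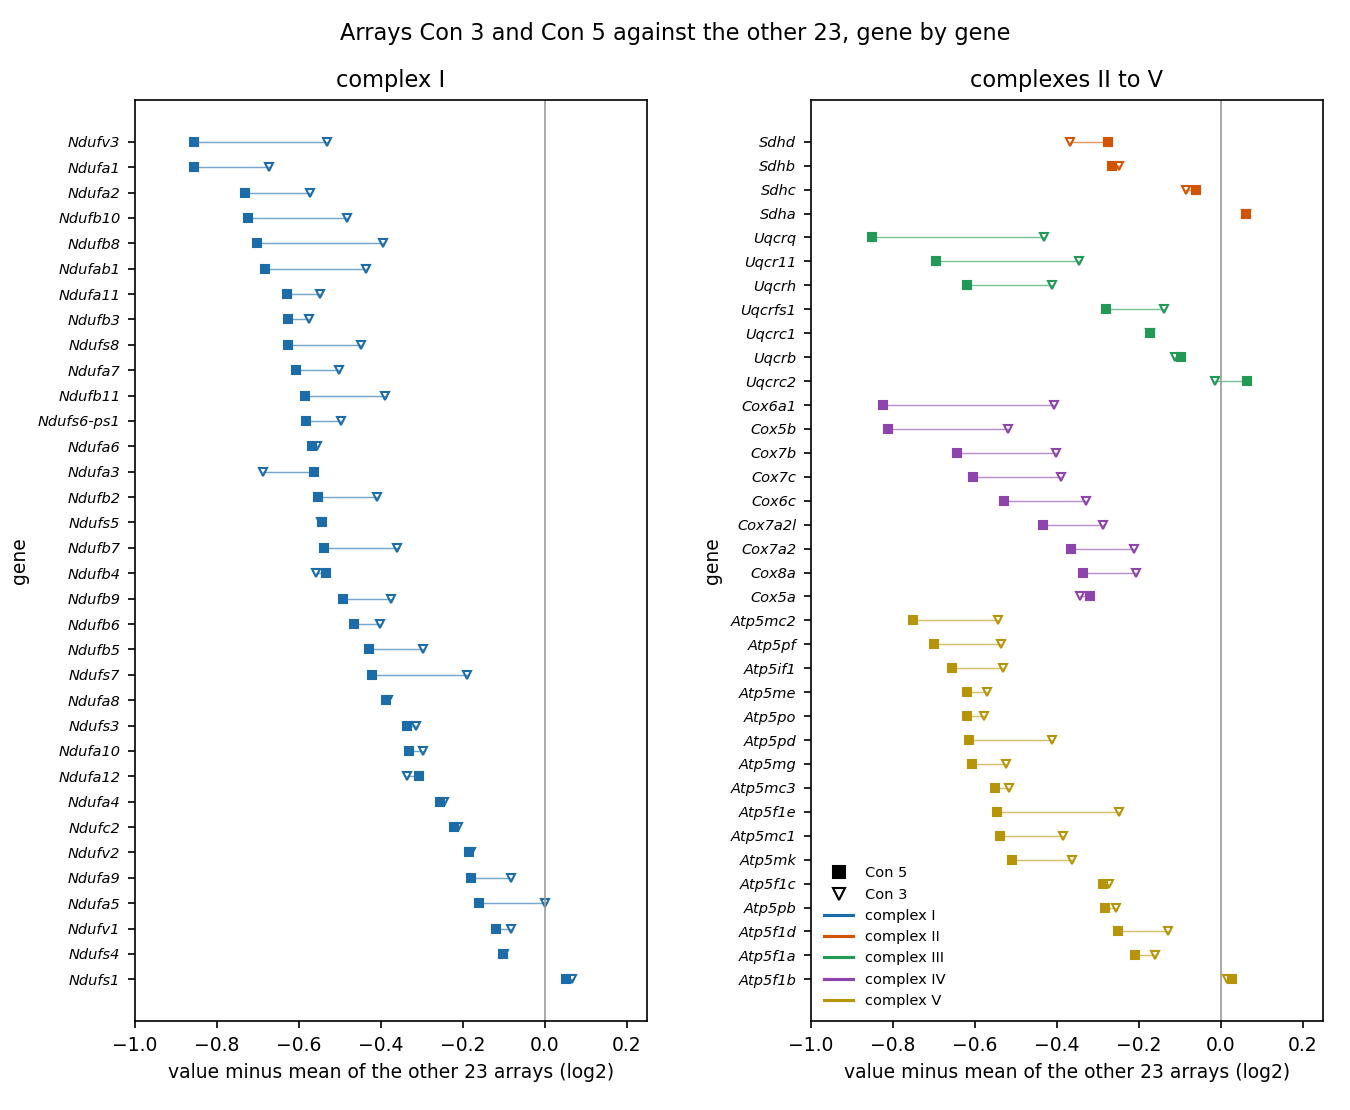
For each of the 70 genes (y axis, complex I on the left, complexes II to V on the right, coloured by complex) the value on Con 5 (filled square) and Con 3 (open triangle) minus the mean of the other 23 arrays (x axis, log2 units). Genes run from -0.86 to 0.06 on Con 5, and Ndufs1, Sdha, Uqcrc2 and Atp5f1b lie at or near 0 on both arrays.

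A grouping by role was made after these values were seen and is given as a description. The 12 members of the enzymatic core, that is the conserved peripheral arm of complex I, the catalytic part of complex II, the Rieske protein and the alpha, beta and gamma subunits of the F1 part (Ndufs1, Ndufs3, Ndufs7, Ndufs8, Ndufv1, Ndufv2, Sdha, Sdhb, Uqcrfs1, Atp5f1a, Atp5f1b and Atp5f1c) had a median of -0.24 on Con 5 and -0.17 on Con 3. The other 58 had medians of -0.55 and -0.39. Not every core subunit was close to the other arrays: Ndufs8, an iron-sulfur subunit, lay 0.63 below them on Con 5. Longer genes departed less. Over the 70 members, Spearman's rho between the span of the gene on GRCr8, introns included, and its difference on the array was 0.55 for Con 5 and 0.52 for Con 3. Over 8976 kept genes with a span, rho was 0.46 and 0.43, so the relation was shared by the genes at large. The 23 members with the shortest span (554 to 5254 bases) had a median of -0.61 on Con 5, the middle 23 one of -0.49 and the 24 with the longest (10213 to 110495 bases) one of -0.30. These correlations are across genes measured on the same arrays, and genes are not independent replicates. Atp5f1b, with a span of 6404 bases, was among the middle 23 and did not depart. By promoter, the 41 kept members with any of the 3 motif cores had a median of -0.53 on Con 5 and the 21 without one had -0.43. For the single cores, the medians with and without were -0.568 and -0.433 for GABP and -0.564 and -0.509 for YY1. The NRF1 core went the other way, at -0.5 and -0.524.

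Other arrays were the lowest or the highest for some members. Con-Pf 10 was the lowest of the 25 arrays for 6 of the 70 members, namely Ndufa10, Ndufa5, Ndufs1, Sdha, Uqcrb and Uqcrc2. It was also the lowest for 1643 of the 14607 kept probe sets, a share that the members did not exceed. 3 of these, Ndufs1, Sdha and Uqcrc2, are among the 4 genes that were not below the other arrays on Con 5. Nic 7 and Con 7 were each the highest array for 14 members, and for 671 and 982 of the 14607 kept probe sets.

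The comparison of Con-Pf with Con addresses pair-feeding of the dam. No member passed in the model over all genes (limma, Benjamini-Hochberg adjusted p under 0.05), where 1.26% of the 14607 probe sets passed. The values were nevertheless mostly on one side: 66 of 70 members were higher in Con-Pf and 4 lower. Of the 14607 kept probe sets, 8154 were higher and 6453 lower. The members had a median log2 fold change of 0.14 (1.1-fold), against 0.02 over all kept probe sets, and a range from -0.04 to 0.29. At an unadjusted p under 0.05 there were 26 members, all higher in Con-Pf, which is 26 of 70 against 14.2% of all kept probe sets for higher values, and 0 lower, against 7.76%. The smallest adjusted p of a member was 0.0932. Without Con 3 and Con 5 the median was 0.02 (1.02-fold), 53 of 70 members were higher, 3 had an unadjusted p under 0.05 and the smallest adjusted p was 0.547. Of the 14607 kept probe sets without these 2 arrays, 8056 were higher and 1183 had an unadjusted p under 0.05 in either direction. The higher values in Con-Pf thus rest on these 2 arrays for most of their size. Without Con 7, the Con array with the highest mean deviation, 5 members passed, all higher in Con-Pf (Uqcrq, Uqcr11, Cox6a1, Ndufb10 and Ndufs5), among 480 probe sets.

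The comparison of Nic with Con addresses gestational nicotine together with its reduced food and fluid intake. Again no member passed, and none of the 14607 probe sets did (0%). Values were higher in Nic for 67 of 70 members, and for 8639 of the 14607 kept probe sets. The members had a median log2 fold change of 0.14 (1.1-fold), against 0.02 over all kept probe sets, and a range from -0.07 to 0.27. At an unadjusted p under 0.05 there were 27 members, all higher in Nic, where 12.3% of all kept probe sets were higher and 3.96% lower. The smallest adjusted p was 0.268. Without Con 3 and Con 5 the median was 0.04 (1.03-fold), 63 of 70 were higher, 2 had an unadjusted p under 0.05 and the smallest adjusted p was 0.953. Of the 14607 kept probe sets without these 2 arrays, 9052 were higher and 679 had an unadjusted p under 0.05 in either direction. Both comparisons share the 8 Con arrays, so that their likeness is no separate observation.

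**Figure D3:**
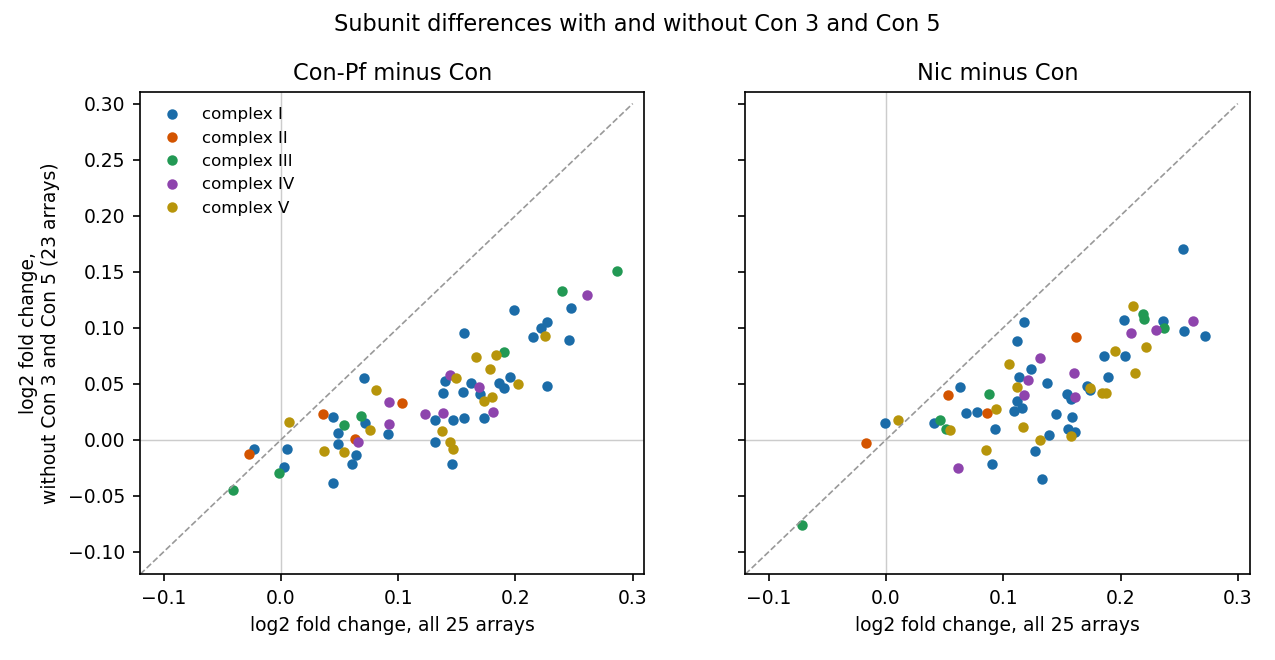
Log2 fold change of each of the 70 genes with all 25 arrays (x axis) and without Con 3 and Con 5 (y axis), for Con-Pf minus Con (left) and Nic minus Con (right), coloured by complex; the dashed line marks equal values. The medians are 0.14 and 0.14 on the x axes and 0.02 and 0.04 on the y axes, and most genes lie below the dashed line.

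The comparison of Con-Pf with Nic does not involve Con and sets nicotine against matched food intake. Fluid intake was not matched, and the study reports that Nic dams drank less than Con-Pf dams. The comparison therefore does not isolate nicotine. No member passed, where 0.185% of the 14607 probe sets did. 25 members were higher in Con-Pf and 45 lower, and of the 14607 kept probe sets 6438 were higher and 8169 lower. The members had a median log2 fold change of -0.02, against -0.01 over all kept probe sets, and a range from -0.11 to 0.09. At an unadjusted p under 0.05 there were 0 higher members, against 1.82% of all kept probe sets, and 1 lower member, against 2.54%. That member was Ndufa5, an accessory subunit of complex I, with values of 9.47 to 9.64 and a median of 9.55 in Nic, and of 9.16 to 9.62 with a median of 9.43 in Con-Pf. The groups overlapped, and the difference was -0.11 ± 0.05 (SE, adjusted p = 0.999 by limma, and 0.773 without Con 3 and Con 5). The 95% confidence intervals of the single members reached from -0.31 to 0.36 at their widest, so differences of that size between Con-Pf and Nic are not excluded for the least precise ones.

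The complexes had medians of similar size in the comparisons with Con, except that complexes II and III had lower ones. For Con-Pf minus Con the median log2 fold changes were 0.15 in complex I, 0.05 in complex II, 0.07 in complex III, 0.14 in complex IV and 0.15 in complex V, and without Con 3 and Con 5 they were 0.03, 0.01, 0.02, 0.03 and 0.04. For Nic minus Con they were 0.14, 0.07, 0.09, 0.16 and 0.15, and without both arrays 0.04, 0.03, 0.04, 0.06 and 0.04. For Con-Pf minus Nic they were -0.02, -0.02, 0.00, -0.04 and -0.02. Differences between complexes were not tested. Ndufa4 was counted with complex I by its symbol, although its protein is now placed in complex IV, and moving it there changed no call.

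In complex I, the entry point for electrons from NADH, 33 of 34 genes were higher in Con-Pf than in Con and 33 of 34 higher in Nic, with 14 and 12 higher at an unadjusted p under 0.05, against 14.2% and 12.3% of all kept probe sets. Without Con 3 and Con 5, 25 and 31 of the 34 were higher, with 1 at an unadjusted p under 0.05 in each comparison. Of the 14607 kept probe sets, 8056 and 9052 were then higher, and 1183 and 679 had an unadjusted p under 0.05 in either direction. Ndufs7, an iron-sulfur core subunit next to the ubiquinone site, had values of 10.98, 11.31 and 11.44 in Con (lowest, median and highest array), 11.23, 11.39 and 11.50 in Nic and 11.25, 11.45 and 11.58 in Con-Pf. Con 5 was its lowest array and the groups otherwise overlapped. The difference between Con-Pf and Con was 0.16 ± 0.05 (SE, adjusted p = 0.112 by limma) and 0.10 without Con 3 and Con 5. Ndufv3 had values of 10.26, 10.99 and 11.21 in Con, 11.06, 11.10 and 11.37 in Nic and 10.93, 11.14 and 11.35 in Con-Pf. Its difference of 0.25 ± 0.09 (SE, adjusted p = 0.141 by limma) between Con-Pf and Con became 0.09 without both arrays.

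Ndufb6, an accessory subunit of the membrane arm, had the smallest p of any member for Nic minus Con. Its values were 11.94, 12.30 and 12.45 in Con, 12.38, 12.44 and 12.64 in Nic and 12.07, 12.42 and 12.70 in Con-Pf. The Nic arrays overlapped only with the top of the Con range. The difference between Nic and Con was 0.25 ± 0.08 (SE, adjusted p = 0.268 by limma) and 0.17 without Con 3 and Con 5 (adjusted p = 0.953), with adjusted p between 0.157 and 0.953 over the alternatives. Ndufb9, another subunit of that arm, differed by 0.20 ± 0.07 (SE, adjusted p = 0.268 by limma) and by 0.11 without both arrays. Ndufa1 had the largest SD over the 25 arrays in this complex (0.25) and Ndufv1 the smallest (0.06). For Ndufv1 the differences were 0.00 for Con-Pf minus Con, 0.04 for Nic minus Con and -0.04 for Con-Pf minus Nic.

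Complex II, succinate dehydrogenase, is shared with the tricarboxylic acid cycle. Sdha had values of 10.93, 11.01 and 11.05 in Con, 10.90, 10.99 and 11.04 in Nic and 10.86, 10.97 and 11.07 in Con-Pf, and the groups overlapped throughout. Its difference was -0.03 for Con-Pf minus Con, with a 95% confidence interval from -0.10 to 0.04, and -0.02 for Nic minus Con, from -0.09 to 0.06. Sdhb, the iron-sulfur subunit, and Sdhc, a membrane anchor, had differences of 0.06 and 0.04 for Con-Pf minus Con and of 0.09 and 0.05 for Nic minus Con. Sdhd, the other membrane anchor, departed more on Con 3 and Con 5 and had values of 10.10, 10.39 and 10.55 in Con, 10.33, 10.54 and 10.59 in Nic and 10.33, 10.46 and 10.57 in Con-Pf. Con 3 and Con 5 were its lowest arrays. The difference between Nic and Con was 0.16 ± 0.06 (SE, adjusted p = 0.268 by limma) and 0.09 without both.

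In complex III, 5 of 7 genes were higher in Con-Pf and 6 of 7 in Nic than in Con. Uqcrq had the smallest adjusted p of any member in the comparison of Con-Pf with Con. Its values were 10.02, 10.70 and 11.08 in Con, 10.72, 10.88 and 11.02 in Nic and 10.83, 10.92 and 11.05 in Con-Pf. Con 5 and Con 3 were the lowest arrays, but Con 7 was above every Con-Pf array. The difference between Con-Pf and Con was 0.29 ± 0.09 (SE, adjusted p = 0.0932 by limma) and 0.15 without Con 3 and Con 5 (adjusted p = 0.547). Without Con 7 it was 0.35 (adjusted p = 0.0225), and over the 42 alternatives run the adjusted p lay between 0.0225 and 0.547.

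Uqcr11, the smallest subunit of the complex, had values of 12.36, 12.87 and 13.15 in Con, 12.85, 13.11 and 13.18 in Nic and 12.94, 13.12 and 13.21 in Con-Pf, with a difference of 0.24 ± 0.08 (SE, adjusted p = 0.1 by limma) between Con-Pf and Con. Uqcrh, the hinge protein that binds cytochrome c1, differed between Nic and Con by 0.22 ± 0.07 (SE, adjusted p = 0.268 by limma). Both became smaller without Con 3 and Con 5, at 0.13 and 0.11. Uqcrc2 went the other way, with values of 11.57, 11.65 and 11.69 in Con, 11.46, 11.53 and 11.67 in Nic and 11.40, 11.59 and 11.69 in Con-Pf. It was the lowest value among the members in both comparisons with Con, at -0.04 and -0.07, and neither passed the test. Uqcrc1, the other core protein, had the smallest SD in the complex (0.06).

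In complex IV all 9 kept genes were higher in Con-Pf and in Nic than in Con, and 8 of 9 in both comparisons without Con 3 and Con 5. Cox6a1 had values of 11.64, 12.28 and 12.66 in Con, 12.34, 12.44 and 12.66 in Nic and 12.37, 12.53 and 12.64 in Con-Pf. Con 5 lay far below the rest, and Con 7 was at the top of its group. The difference between Con-Pf and Con was 0.26 ± 0.09 (SE, adjusted p = 0.111 by limma), 0.13 without Con 3 and Con 5 and 0.32 without Con 7 (adjusted p = 0.0339), with adjusted p between 0.0339 and 0.628 over the alternatives. Cox5b had values of 9.36, 10.06 and 10.36 in Con, 10.13, 10.23 and 10.34 in Nic and 9.98, 10.16 and 10.34 in Con-Pf. Its difference of 0.26 ± 0.10 (SE, adjusted p = 0.268 by limma) between Nic and Con was 0.11 without both arrays.

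Cox6c and Cox8a differed between Nic and Con by 0.16 and 0.13, and without Con 3 and Con 5 by 0.06 and 0.07. Of the Cox7a family, Cox7a2, the isoform of most tissues, had differences of 0.07 for Con-Pf minus Con and 0.12 for Nic minus Con, and of 0.00 and 0.05 without Con 3 and Con 5. Cox7a2l, which is known for joining complexes III and IV in supercomplexes, had differences of 0.14 and 0.06, which were 0.06 and -0.03 without both arrays, so that the second turned its sign. Ndufa4 had 0.07 and 0.11, and 0.02 and 0.06 without them. No probe set with a single symbol was found for Cox7a1, Cox6b1 or Ndufa4l2.

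In complex V all 16 genes were higher in Con-Pf and in Nic than in Con, and 12 and 15 of 16 without Con 3 and Con 5. The 3 genes Atp5mc1, Atp5mc2 and Atp5mc3 encode the same mature c subunit with different import sequences, and probes may not separate all of their RNA. Their differences were 0.18, 0.20 and 0.14 for Con-Pf minus Con and 0.12, 0.21 and 0.17 for Nic minus Con. Without Con 3 and Con 5 they were 0.08, 0.05 and 0.01, and 0.01, 0.06 and 0.05. Atp5pd, a subunit of the peripheral stalk, differed by 0.18 ± 0.07 (SE, adjusted p = 0.17 by limma) and 0.20 ± 0.08 (SE, adjusted p = 0.277 by limma) in the same comparisons, and by 0.06 and 0.08 without both arrays. Atp5f1d, the delta subunit of the central stalk, differed by 0.11 ± 0.04 (SE, adjusted p = 0.268 by limma) between Nic and Con. Atp5mk had the largest SD in the complex (0.29), with values from 10.05 to 11.14 in Con-Pf alone.

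Atp5f1b, formerly Atp5b, had the smallest SD of all members over the 25 arrays (0.05). It is the gene that the study used to normalise its quantitative PCR. Its values were 12.40, 12.56 and 12.59 in Con, 12.50, 12.53 and 12.60 in Nic and 12.47, 12.56 and 12.59 in Con-Pf. The groups overlapped, and its lowest array was Con 7. Its difference was 0.01 for Con-Pf minus Con (95% confidence interval from -0.05 to 0.07), 0.01 for Nic minus Con (from -0.06 to 0.08) and 0.00 for Con-Pf minus Nic (from -0.07 to 0.06). On Con 3 and Con 5 it lay 0.02 and 0.03 above the mean of the other 23 arrays. Cyc1, which encodes cytochrome c1 of complex III, was named beside it in the study's methods as stably expressed but was not used to normalise, and no probe set with its single symbol was found.

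**Figure D4:**
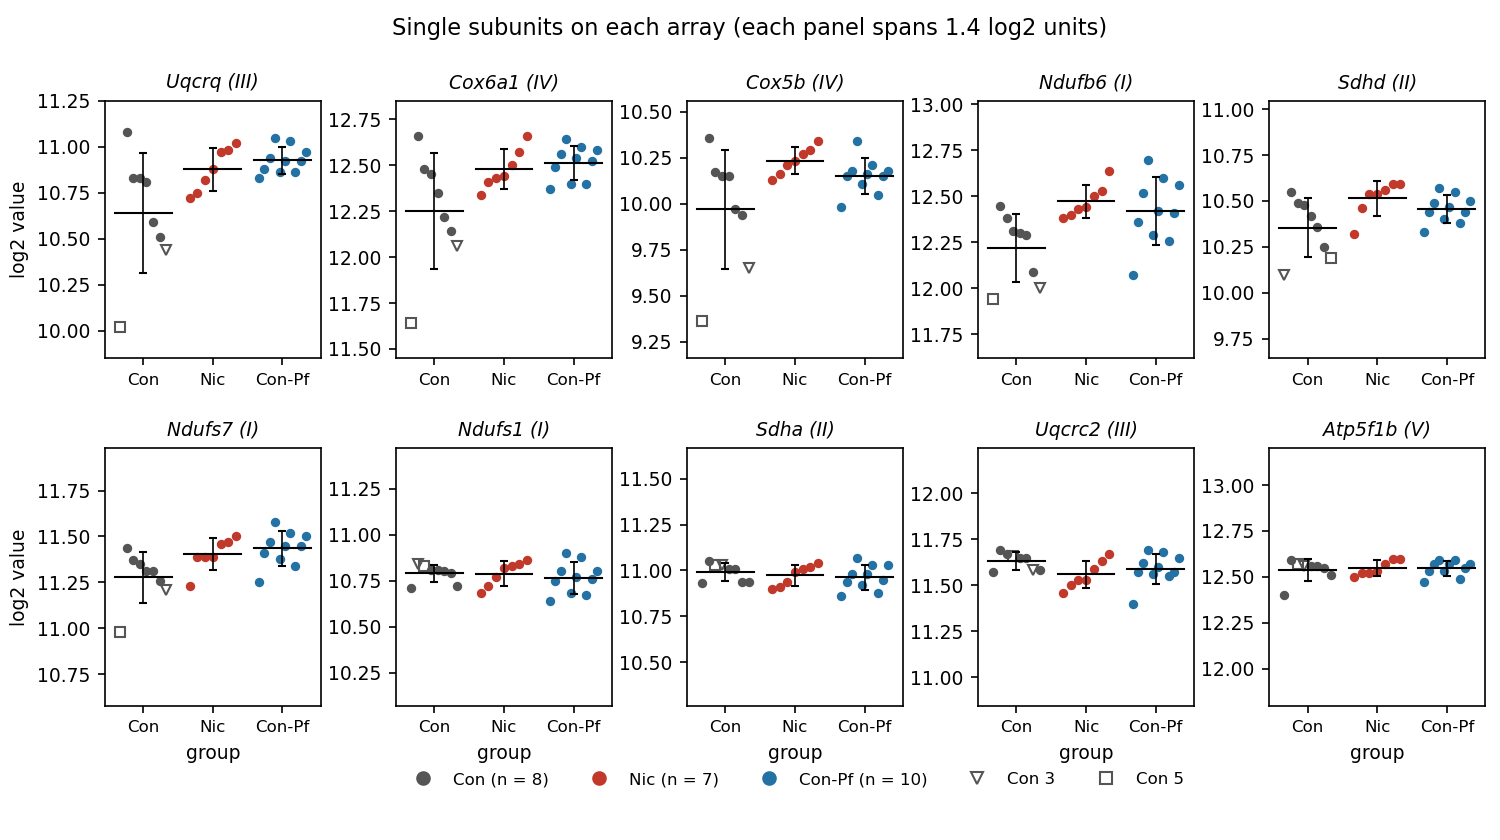
Log2 values of 10 genes on each array (y axis) by group (x axis), with the complex in brackets; every panel spans the same range, points are arrays, horizontal bars group means and vertical bars SD, and the open triangle and square are Con 3 and Con 5. In the genes of the upper row and in Ndufs7 both lie at the bottom of the Con group, whereas in Ndufs1, Sdha, Uqcrc2 and Atp5f1b they lie among the other arrays.

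The spread within Con followed the same 2 arrays. The median SD of the members was 0.22 in Con, 0.09 in Nic and 0.10 in Con-Pf, and 0.11 in Con without Con 3 and Con 5. Over all kept probe sets the medians were 0.14, 0.09 and 0.10, and 0.11 without both arrays. In complex V the median SD in Con without both arrays was 0.15.

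Genes close to this pathway were examined for the same departure. A list of 9 further chain components took in electron carriers and also Coq7 and Coq9, genes of ubiquinone synthesis. Of these 9 genes, 7 were kept, among them Cox4i1, the largest nuclear subunit of complex IV, and Cycs, cytochrome c. Their mean deviation was -0.19 on Con 3 and -0.27 on Con 5, and Cox4i1 lay 0.30 and 0.52 below the other arrays. The 25 kept assembly factors had -0.11 and -0.17. For the 14 enzymes of the tricarboxylic acid cycle, a list that also took in pyruvate dehydrogenase genes, the values were 0.00 and -0.05. For the 14 of glycolysis they were 0.00 and -0.05. Ribosomal proteins were lower on the same arrays: the 69 genes of the cytosolic ribosome had mean deviations of -0.34 and -0.45, and the 68 of the mitochondrial ribosome -0.27 and -0.38. The 12 mitochondrial carriers and inner membrane proteins had -0.01 and -0.06, and the 12 regulators of mitochondrial genes -0.08 and -0.17.

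**Figure D5:**
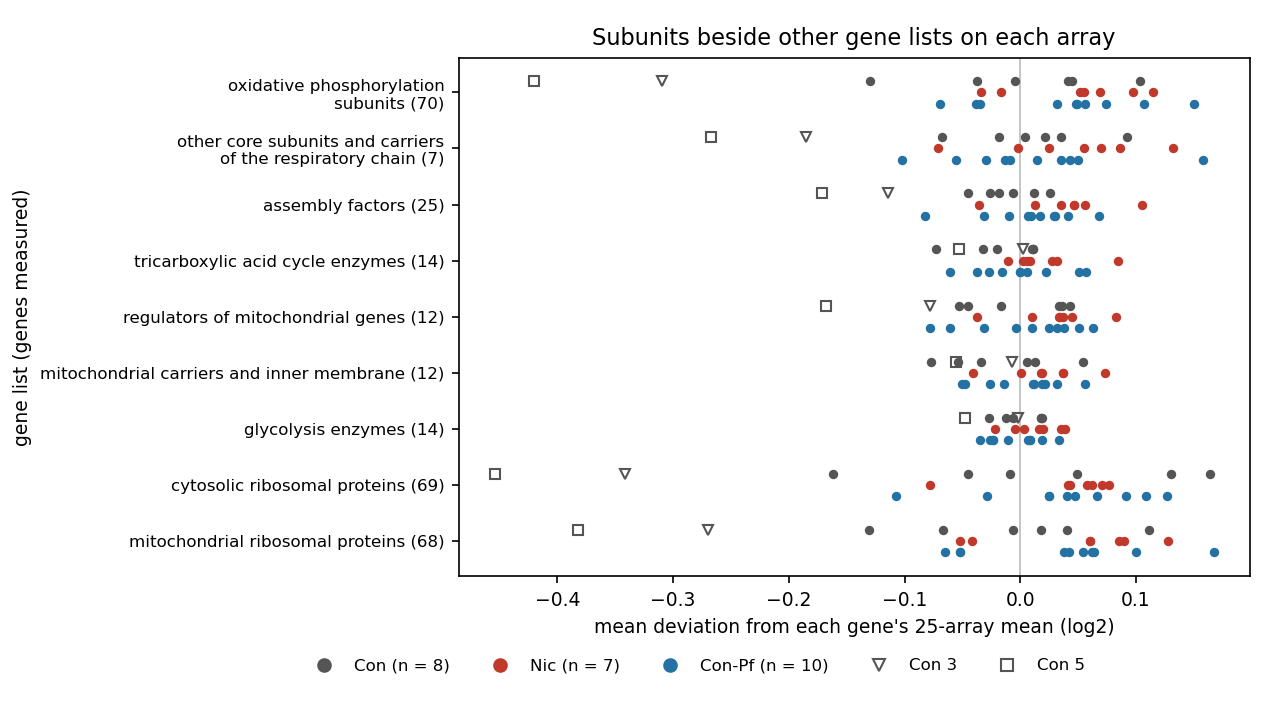
Mean deviation from each gene's 25-array mean (x axis, log2 units) for the oxidative phosphorylation subunits and 8 other gene lists (y axis, number of genes measured in brackets), with 1 point for each array. Con 3 and Con 5 lie at -0.31 and -0.42 for the subunits and at -0.34 and -0.45 for cytosolic ribosomal proteins, and at 0.00 and -0.05 for glycolysis.

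The same lists were compared between the groups. For Con-Pf minus Con and Nic minus Con the median log2 fold changes were 0.13 and 0.12 for cytosolic ribosomal proteins (0.02 in both without Con 3 and Con 5), 0.13 and 0.15 for mitochondrial ribosomal proteins (0.04 and 0.06), 0.07 and 0.08 for the further chain components (-0.01 and 0.03) and 0.06 and 0.08 for assembly factors (0.01 and 0.05). They were 0.02 and 0.04 for tricarboxylic acid cycle enzymes and -0.01 and 0.02 for glycolysis, where the second flips sign after another scaling, to -0.02 with further quantile normalization and -0.01 with centring of the arrays. Regulators had 0.02 and 0.06, and carriers 0.03 and 0.04. Of all these genes 1 passed the test in 1 comparison: Pfkl, the liver form of phosphofructokinase, was lower in Con-Pf than in Con by -0.12 ± 0.03 (SE, adjusted p = 0.0487 by limma), and by -0.10 without Con 3 and Con 5, where it did not pass (adjusted p = 0.195). In a limma fit of Con-Pf and Con alone, 0 glycolysis genes passed.

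Markers of cell types were compared on the same arrays, since in bulk tissue fewer cells of a type and less RNA per cell cannot be told apart. The 16 neuron markers, all kept and including the striatal genes Ppp1r1b, Drd1 and Penk, had mean deviations from -0.06 to 0.06 in Con, from -0.04 to 0.03 in Nic and from -0.05 to 0.04 in Con-Pf, with 0.02 for Con 3 and -0.05 for Con 5. On Con 3 and Con 5 the 8 astrocyte markers kept were at 0.16 and 0.16, the top of a Con range from -0.15 to 0.16. The 8 endothelial and mural markers were at 0.12 and 0.22, with Con from -0.10 to 0.22, and the 8 microglia markers at -0.16 and -0.23, with Con from -0.23 to 0.15. The 8 oligodendrocyte markers were at -0.09 and 0.05. Of 9 cortical neuron markers 3 were kept, at -0.33 and 1.02, of 7 choroid plexus markers 2, at -1.27 and -1.07, and of 9 striated muscle markers 2, at 0.10 and -0.19. Nic arrays ran from -0.464 to 1.548 for the cortical neuron markers and from -1.315 to 1.283 for the choroid plexus markers. Con 3 and Con 5 lay within these Nic ranges. None of the markers passed the test in any of the 3 comparisons. The labels give no RNA quality per array. The study's methods mention a sample of low RNA integrity that was retained, without naming its array. The part of cell composition and of RNA quality in the values of Con 3 and Con 5 was not tested.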

How the data were processed

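RNA of the striatum was hybridised to Affymetrix rat Gene 1.0 ST arrays. The authors made the deposited log2 values with RMA (background correction, quantile normalization, 1 summary value per probe set). Affymetrix Expression Console 1.1 is also named in the submitters' processing notes. The authors had removed further arrays for quality, which are not analysed here. Of the group sizes, the study's text states those of Con and Con-Pf in more than 1 way, and the titles were followed. Its count for the arrays analysed goes with the descriptions of the arrays in doubt, and not with their titles. Quantile normalization gives arrays one distribution, so differences are relative to the array as a whole. Batches of extraction or hybridisation were not given per array.

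All 25 columns were used. Of the probe sets, 15310 carry 1 symbol, 323 several and 13581 none. Those at or above the median of the probe-set means (quantile 0.5) were fitted with limma 3.58.1 (R 4.3.3) as 1 model of 3 groups, and p-values were adjusted by Benjamini-Hochberg (threshold 0.05). The number of arrays limits the precision. The fit was tested on simulated data. Named members were the 2 with the smallest p of each complex and comparison, paralogue families, the genes the study ranked as stable for PCR, complex II and the largest and smallest SD. The members and lists were chosen with earlier results of these data known. Gene spans and promoters came from RefSeq (GRCr8) through the entrez identifiers, which matched all 75 members, with the first promoter of each gene. Python 3.11.15 with matplotlib 3.10.9 made the figures.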

Additional observations from a re-analysis of the deposited data

Results flagged for a closer look

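The values of the named members, and the mean deviations of all members and of each complex, were examined in each group for an array set apart from its neighbours (a gap to the nearest array above the critical share of the group's range in Dixon's test). Of 105 such groups of arrays 8 were set apart, and chance alone sets apart about 1 in 20. None concerned Con 3 or Con 5, which lie apart as a pair, so that neither has a wide gap to its nearest neighbour.

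Con-Pf 10 was lowest in its group for Ndufa5 (9.16, the next array at 9.40) and for Uqcrc2 (11.40, the next at 11.55). Con-Pf 1 was lowest for Atp5f1d (13.05, the next at 13.11). Nic 1 was lowest for Ndufs7 (11.23, the next at 11.39) and for Uqcr11 (12.85, the next at 13.05). Nic 7 was highest for Ndufv3 (11.37, the next at 11.18) and for Ndufa1 (9.56, the next at 9.31). Con 7 was lowest for Atp5f1b (12.40, the next at 12.51), although it was the highest of the 25 arrays for 14 other members.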

How the results depend on the processing

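The number of members that passed the test stayed at 0 in all 3 comparisons under other moderation, 2-group fits, array weights, the methods' t-test, the study's thresholds, other filters, other scalings, other placings of Con-Pf 9 and 10, the mean of all probe sets of a gene and the leaving out of Con 3 and Con 5. Leaving out 1 array at a time gave 0 to 5 members for Con-Pf minus Con, where the 5 came without Con 7 (Uqcrq, Uqcr11, Cox6a1, Ndufb10 and Ndufs5, among 480 probe sets). The median log2 fold change of the members for Con-Pf minus Con was 0.024 without Con 3 and Con 5, and 0.08 (without Con 5) to 0.17 (without Con 7) with 1 array left out. For Nic minus Con these ends were 0.09 (without Con 5) and 0.18 (without Con 7), and for Con-Pf minus Nic -0.03 and -0.01. Deviations of 10 of 22 same-number pairs of arrays correlated above 0.1 (from -0.36 to 0.34), and 5 of 21 arrays correlated best with their own number. Pairs of different numbers were not counted beside these, so whether the numbers mark pairs was not tested. With the replicate block over replicates 1 to 7, 1 member passed (Ndufb6, Con-Pf minus Con, among 153 of 14607 probe sets), and 0 with no block on the same 21 arrays. The glycolysis median for Nic minus Con was -0.019 with further quantile normalization and -0.013 with centring. The causes were not tested. With 7 to 10 arrays a group, small differences of single members are within the limits of precision.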
